A study of Mus musculus with 18 samples.

Results

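The serpins are a large family of protease inhibitors, most of which trap their target enzyme by offering an exposed stretch, the reactive centre loop, as bait and changing shape once it is cut. The liver secretes much of the plasma supply, above all clade A, which holds the α1-antitrypsin and antichymotrypsin genes and the hormone carriers, while clade B serpins stay inside cells and guard them against their own proteases. In mice, the human genes for α1-antitrypsin and antichymotrypsin each correspond to a row of tandem copies, named Serpina1a to Serpina1e and Serpina3a to Serpina3n.

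The members were the genes in the deposited RNA-seq table whose symbol begins with Serpin, a clade letter from a to i and a number. They came to 40 of the 15572 genes in the table, with 53 transcripts, and 25 other Serpin genes of the RefSeq annotation were not in it. Clade A had 23 members, clade B 7, clade E 3, clade F 2, and clades C, D, G, H and I had 1 each. Low counts kept 5 members (Serpina5, Serpinb1b, Serpinb7, Serpine3 and Serpini1) out of the test, so 35 of the 14151 genes tested were serpins.

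The data came from the livers of C57BL/6J mice in which JMJD1C, a histone demethylase that acts on H3K9me2, had been deleted by a Cre recombinase under the albumin promoter, which is active in hepatocytes (JMJD1C-LKO), and from their wild-type (WT) littermates. All mice had been on chow for 6 to 8 weeks and were fasted overnight, and the refed ones were then given a high-carbohydrate diet, for 6 h by the labels. RNA-seq covered refed WT and refed JMJD1C-LKO livers, ATAC-seq, which maps open chromatin, covered fasted WT, refed WT and refed JMJD1C-LKO livers, and H3K9me2 ChIP-seq covered fasted and refed WT livers, with 2 samples in each group. RNA was pooled before the RNA-seq libraries were prepared, the other samples were single mice, and nothing in the labels separates mouse-to-mouse from technical spread between the RNA-seq pools. With so few samples no exact test on single values can reach 0.05, and the adjusted p-values below came from edgeR's quasi-likelihood test over all genes.

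Each RNA-seq library held between 51265155 and 54400531 counts. Jmjd1c itself was at 22.0 and 22.8 CPM (counts-per-million, scaled by TMM) in the WT and 20.0 and 20.5 in the JMJD1C-LKO libraries, a log2 difference of −0.14 ± 0.08 (SE; adjusted p = 0.233). These counts cover whole transcripts and do not separate a deleted part from the rest, so the groups are called by their labels throughout, as WT and LKO-labelled libraries. Defining hepatocyte markers were abundant in every library, with 8 of 8 tested and a summed level of 109141 to 121094 CPM, and 3 of them, Tat, Cps1 and Ass1, were higher in the LKO-labelled libraries. All 8 Kupffer cell markers were higher in the LKO-labelled libraries, with sums of 245 and 251 CPM in the WT against 482 and 695 in the LKO-labelled libraries, as were 7 of 8 endothelial markers (172 to 175 against 229 and 310 CPM) and 3 of 8 stellate cell markers (198 to 207 against 222 and 274 CPM). Of the lymphocyte markers 2 of 7 were higher (sums of 4.49 and 4.81 against 8.12 and 10.1 CPM), and none of the 3 neutrophil markers tested was called (0.752 and 0.613 against 1.52 and 1.54 CPM). Over all 14151 genes tested 14.6% were higher, and counts of 2 or 3 in lists this small say little beside that share. In bulk liver, more cells of a type and more RNA per cell cannot be told apart.

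Levels were compared between genes as TPM (transcripts-per-million), which divides the counts by the RefSeq exon length. Serpin transcripts held 4.009% and 4.002% of all counts in the WT libraries and 4.695% and 4.086% in the LKO-labelled libraries. Serpina3k, one of the antichymotrypsin copies, led the family with a mean of 10799 TPM in the WT libraries and stood 10th of 15489 genes. The α1-antitrypsin copies came next, with Serpina1c at 8897, Serpina1b at 6831, Serpina1a at 4337, Serpina1e at 3440 and Serpina1d at 2966 TPM. Antithrombin, encoded by Serpinc1 and the main brake on thrombin, reached 2373 TPM.

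A middle tier lay between 104 and 878 TPM in the WT libraries. It held Serpinf1 (PEDF, an anti-angiogenic factor) at 878 TPM and Serping1 (C1 inhibitor, which restrains complement and the contact system) at 863 TPM. Serpina6 (corticosteroid-binding globulin) was at 453, Serpinf2 (α2-antiplasmin, the inhibitor of plasmin) at 408 and Serpind1 (heparin cofactor II) at 392 TPM. Serpina3n stood at 300 TPM, Serpina10 (the protein Z-dependent inhibitor of factor Xa) at 225, Serpina3m at 158, Serpina4-ps1 (annotated as a pseudogene) at 158 and Serpina11 at 104 TPM. The other 23 members were at 10.5 TPM or less, all of clades B, E, H and I among them.

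**Figure D1:**
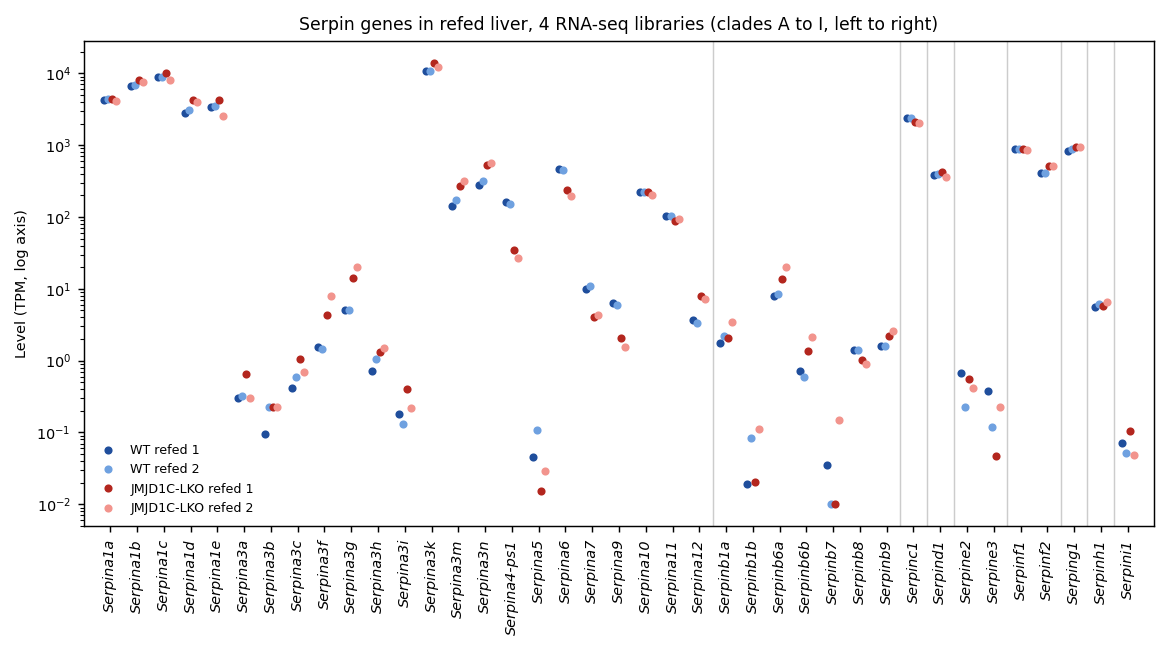
Level of 39 Serpin genes (x axis, clades A to I from left to right, separated by grey lines) in TPM on a log axis (y) in the 4 RNA-seq libraries, 1 point per library. Serpina3k, the 5 Serpina1 copies and Serpinc1 lie above 1000 TPM in every library, and the values of 0 for Serpinb7 are drawn at 0.01 TPM.

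Between the genotypes, 14 of the 35 tested serpins (40.0%) passed an adjusted p of 0.05, 10 of them higher and 4 lower in the LKO-labelled libraries. Over all 14151 genes the share called was 28.0%, with 14.6% higher and 13.4% lower. The median log2 difference was 0.22 over the 35 serpins and 0.0061 over all genes tested. By clade, 6 members rose and 4 fell of 22 tested in clade A, 3 rose of 5 in clade B and 1 rose of 2 in clade F. None was called of the 2 tested in clade E or of the single members of clades C, D, G and H. All 4 that fell were clade A genes outside the Serpina1 and Serpina3 rows. Serpinf2 and Serpinb9, with adjusted p of 0.0123 and 0.0275, were the called members nearest the threshold, and Serpina3k (0.0625) and Serpina3h (0.0905) were the first past it.

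**Figure D2:**
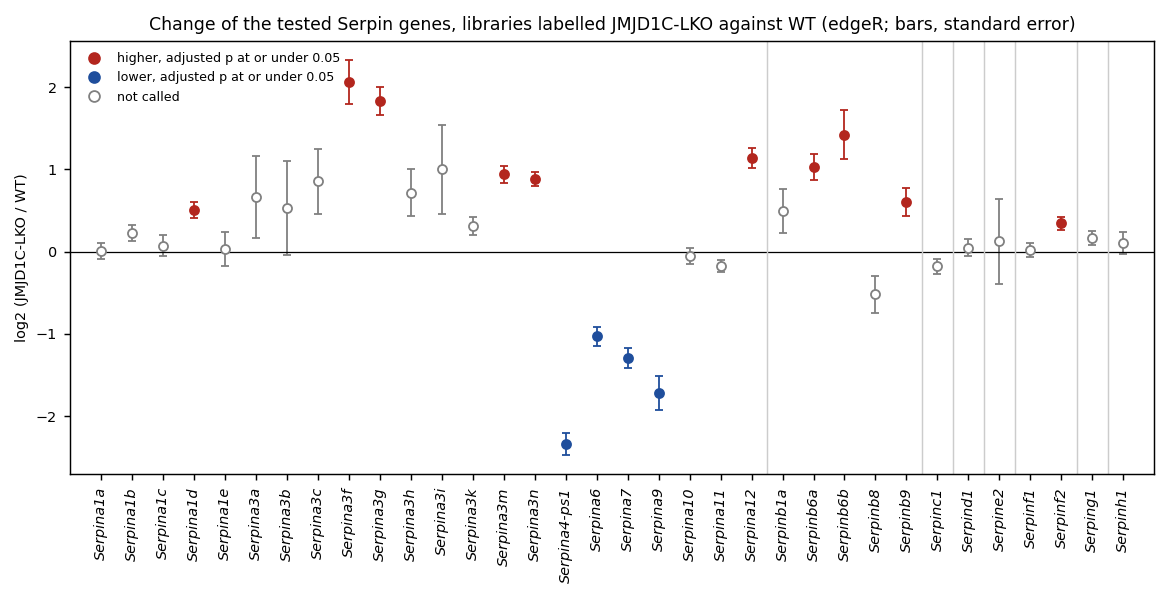
Log2 difference between the LKO-labelled and WT libraries (y axis) of 34 tested Serpin genes (x axis, by clade), with bars for the standard error from edgeR. Filled red points are the 10 genes that were higher, filled blue points the 4 that were lower, and open points were not called.

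Among the hormone carriers of clade A the change was downward. Serpina6, which carries glucocorticoids in plasma (chr12:103646630-103657218), was at 438 and 413 CPM in the WT and 233 and 184 CPM in the LKO-labelled libraries, a fall of 1.03 ± 0.11 on the log2 scale (adjusted p = 0.000313), or 2.04-fold. Serpina7, which encodes thyroxine-binding globulin and lies on the X chromosome (chrX:139079249-139085236), stood at 13.8 and 15.0 against 5.89 and 5.82 CPM, and fell by 1.29 ± 0.12 on the log2 scale (adjusted p = 0.000143). Both LKO-labelled libraries were below both WT libraries for each carrier. Groups that did not overlap were common, with 9547 of the 14151 genes tested and 25 of the 35 serpins.

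The other genes that fell were Serpina4-ps1 and Serpina9. Serpina4-ps1, named as a pseudogene of the kallistatin gene (chr12:104077959-104086920), had 129 and 120 CPM in the WT and 28.5 and 20.9 CPM in the LKO-labelled libraries. It fell by 2.34 ± 0.13 on the log2 scale (adjusted p = 1.38e-05), or 5.05-fold, the largest change in either direction among the tested serpins. Serpina9, known as centerin from germinal centre B cells, went from 6.35 and 5.75 to 2.15 and 1.52 CPM (log2 difference −1.72 ± 0.21, adjusted p = 0.000524). Serpina12, which encodes the adipokine vaspin, lies between them and moved the other way, from 8.01 and 7.06 CPM to 17.7 and 15.4 CPM (1.14 ± 0.12, adjusted p = 0.000292).

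The Serpina1 copies are close to identical, and less so in the bait loop than over the whole coding sequence. Their coding sequences were all 1242 bases long and 96.3% to 98.5% identical in pairs. The stretch of 24 codons that starts at the conserved hinge of the reactive centre loop was read from the GRCm38.p6 genome in the coding direction, with capitals for the 15 of 72 bases that are not the same in all 5 copies.
Serpina1a (chr12:103853765-103853836, minus strand): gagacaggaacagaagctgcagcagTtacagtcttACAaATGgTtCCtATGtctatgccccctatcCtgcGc
Serpina1b (chr12:103728332-103728403, minus strand): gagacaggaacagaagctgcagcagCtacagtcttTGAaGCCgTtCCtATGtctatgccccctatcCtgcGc
Serpina1c (chr12:103895102-103895173, minus strand): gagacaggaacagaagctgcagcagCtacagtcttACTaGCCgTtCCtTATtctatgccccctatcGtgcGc
Serpina1d (chr12:103763770-103763841, minus strand): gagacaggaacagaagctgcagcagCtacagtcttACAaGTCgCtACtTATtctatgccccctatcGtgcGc
Serpina1e (chr12:103947108-103947179, minus strand): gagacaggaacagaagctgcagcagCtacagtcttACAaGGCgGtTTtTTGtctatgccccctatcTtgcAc
In this window the pairs differed at 4 (Serpina1c and Serpina1d) to 10 bases (Serpina1a and Serpina1e) and were 86.1% to 94.4% identical, with most capitals in the middle of the loop.

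Of the 5 copies, Serpina1d alone passed the test. It was at 2402 and 2581 CPM in the WT and 3746 and 3323 CPM in the LKO-labelled libraries (log2 difference 0.50 ± 0.10, adjusted p = 0.0048, or 0.0778 without the first WT library), and its share of the counts of the 5 copies went from 10.6% and 11.4% to 13.4% and 14.9%. Serpina1b was at 5670 and 5678 CPM against 7055 and 6193 CPM (0.22 ± 0.10, adjusted p = 0.116). Serpina1a (0.0009 ± 0.10, adjusted p = 0.996) and Serpina1c (0.07 ± 0.13, adjusted p = 0.708) overlapped between the groups.

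Serpina1e was set by single libraries. It was at 2758 and 2751 CPM in the WT libraries, and at 3605 CPM in the first and 2019 CPM in the second LKO-labelled library. With both, the log2 difference was 0.03 ± 0.21 (adjusted p = 0.932), whereas it was 0.39 (adjusted p = 0.00936) without the second and −0.45 (adjusted p = 0.00269) without the first LKO-labelled library. In these fits the single LKO-labelled library was assumed to vary like the WT pair, which was closer than the LKO-labelled pair (median chi-square per gene of 1.94 and 3.91), so such p-values may be too small. The sum of the 5 copies was 22635 and 22698 CPM in the WT and 27956 and 22247 CPM in the LKO-labelled libraries, so the groups overlapped. Between 38.0% (Serpina1e) and 73.0% (Serpina1c) of all 50-base windows of a copy's transcript were also present in another copy. How the authors' counting shared such reads is not given in the sources used here, and the split between the copies is uncertain to that degree.

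The Serpina3 copies were less alike. In pairs their coding sequences were 73.6% to 92.0% identical, and from 0.06% (Serpina3a) to 19.1% (Serpina3m) of the 50-base windows of a copy were found in another one. The coding sequence used for Serpina3g had only 633 bases, and the lowest value, for Serpina3a and Serpina3g, covered 533 aligned bases. Without Serpina3g the lowest was 74.9%, for Serpina3b and Serpina3i. Serpina3h has no coding sequence in RefSeq. The hinge was found in 4 copies, and the 24 codons from it were read for these, on the plus strand of GRCm38.p6 and with no gaps, with capitals for the 32 of 72 bases that are not the same in all 4.
Serpina3i (chr12:104268474-104268545): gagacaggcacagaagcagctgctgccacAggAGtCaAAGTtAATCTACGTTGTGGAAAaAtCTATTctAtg
Serpina3k (chr12:104345263-104345334): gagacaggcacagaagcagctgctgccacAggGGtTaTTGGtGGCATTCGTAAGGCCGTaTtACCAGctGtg
Serpina3m (chr12:104393763-104393834): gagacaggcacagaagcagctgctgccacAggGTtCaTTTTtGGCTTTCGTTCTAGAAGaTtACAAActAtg
Serpina3n (chr12:104413442-104413513): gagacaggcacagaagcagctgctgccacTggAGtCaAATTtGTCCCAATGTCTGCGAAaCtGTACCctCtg
The first 29 bases, which hold the hinge, were the same in all 4. These copies had been picked by a match to the hinge, which partly set that likeness in advance. Serpina3k and Serpina3n differed at 27 of the 72 bases while their whole coding sequences were 83.7% identical.

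All 10 Serpina3 copies had a log2 difference above 0, and 4 of them passed the test. Serpina3n, an acute phase inhibitor of granzyme B and neutrophil proteases, was at 344 and 384 CPM in the WT and 662 and 677 CPM in the LKO-labelled libraries (0.88 ± 0.09, adjusted p = 0.00021). Serpina3m, its neighbour in the row, rose alongside it from 139 and 166 to 276 and 309 CPM (0.94 ± 0.10, adjusted p = 0.000334). The coding sequence of Serpina3m is 91.85% identical to that of the far more abundant Serpina3k, and the part of shared reads in its counts was not tested. Serpina3k, the copy that makes up 92.0% to 95.6% of the counts of the row, was at 10626 and 10176 CPM against 14071 and 11696 CPM. Its difference of 0.31 ± 0.11 did not pass (adjusted p = 0.0625), but passed with DESeq2's Wald test (adjusted p = 0.0185), with the replicate block (adjusted p = 0.0419) and without the second LKO-labelled library (0.44, adjusted p = 0.00768). Without the first LKO-labelled library it was 0.17 (adjusted p = 0.192), and without either WT library the adjusted p was 0.221 and 0.318. Serpina3k carried most of the row's sum, which was 11118 and 10735 CPM in the WT and 15033 and 12715 CPM in the LKO-labelled libraries.

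Serpina3g and Serpina3f had the largest upward differences of the tested serpins, at low levels. Serpina3g, an inhibitor of cathepsins in lymphoid and myeloid cells, went from 4.75 and 4.91 CPM to 14.1 and 20.1 CPM (1.83 ± 0.17, adjusted p = 0.000154), or 3.55-fold. Serpina3f went from 1.89 and 1.78 CPM to 5.50 and 9.76 CPM (2.06 ± 0.27, adjusted p = 0.000759). Both were higher in the second than in the first LKO-labelled library, as was the sum of the Kupffer cell markers, and the part of those cells in the change was not tested. The second LKO-labelled library was the farther from the WT for 11 of the 14 called serpins. It was also the farther over all genes. Its median chi-square per gene against the WT libraries was 14.93 and 15.03, and that of the first LKO-labelled library 9.69 and 10.15. A transcript listed under Serpina3g, which is not in the RefSeq annotation used here, begins beside the first exon of Serpina3f, so the pair may share reads. Their sum was 6.64 and 6.69 CPM against 19.6 and 29.8 CPM. When each transcript was tested alone, the leading transcript of Serpina3f had a log2 difference of 1.81 (adjusted p = 0.127) and that of Serpina3g 1.19 (adjusted p = 0.0571).

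The remaining copies, Serpina3a, Serpina3b, Serpina3c, Serpina3h and Serpina3i, ranged from 0.116 to 1.80 CPM over the 4 libraries, with log2 differences of 0.525 to 0.998, and none was called.

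**Figure D3:**
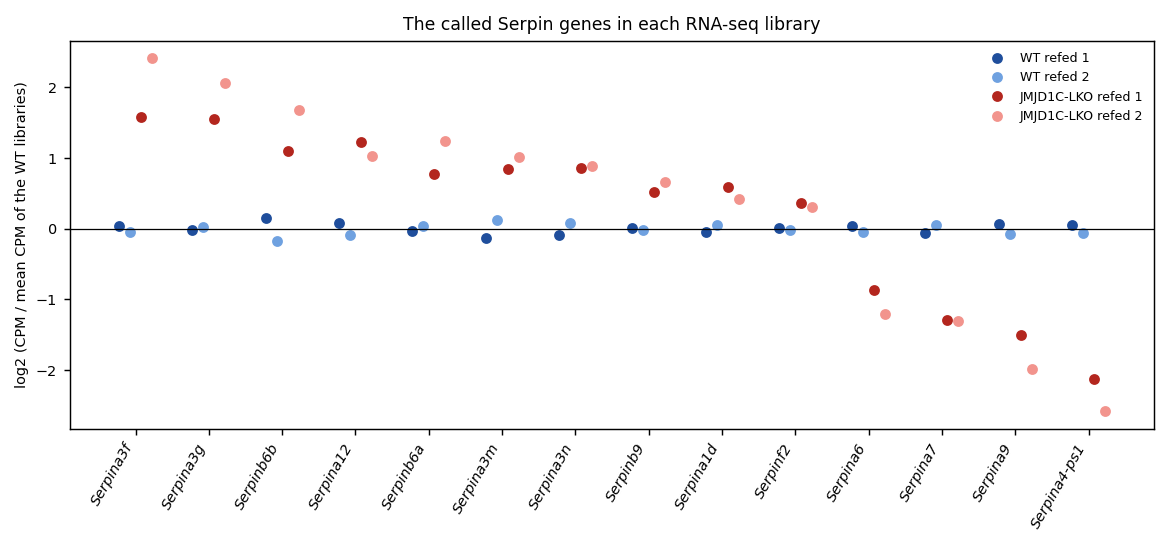
The 14 called Serpin genes (x axis) in each RNA-seq library, as the log2 of CPM over the mean CPM of the 2 WT libraries (y axis), 1 point per library. The LKO-labelled points lie on one side of both WT points for every gene. The groups were likewise apart for 25 of the 35 tested serpins and for 9547 of the 14151 genes tested. The second LKO-labelled library is the farther one for 11 of the 14, the exceptions being Serpina12, Serpina1d and Serpinf2. It was the farther one over all genes too.

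Apart from Serpina7 the clade A members sit in 1 cluster on chromosome 12 (chr12:103616675-104414329). Risen and fallen genes lay along it among runs of uncalled ones. Serpina6 lay beside the uncalled Serpina10 and Serpina1b, and the fallen Serpina9 and Serpina4-ps1 flanked Serpina12, which rose. From Serpina3a to Serpina3n all genes had positive differences, and 26 of the 35 tested serpins did in all. Serpina10 (209 and 209 against 218 and 184 CPM) and Serpina11 (89.3 and 87.8 against 77.7 and 79.1 CPM, −0.18 ± 0.07, adjusted p = 0.111), which stand at either side of the Serpina1 copies, were not called. Serpina5, the protein C inhibitor, had 1 to 7 counts per library.

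**Figure D4:**
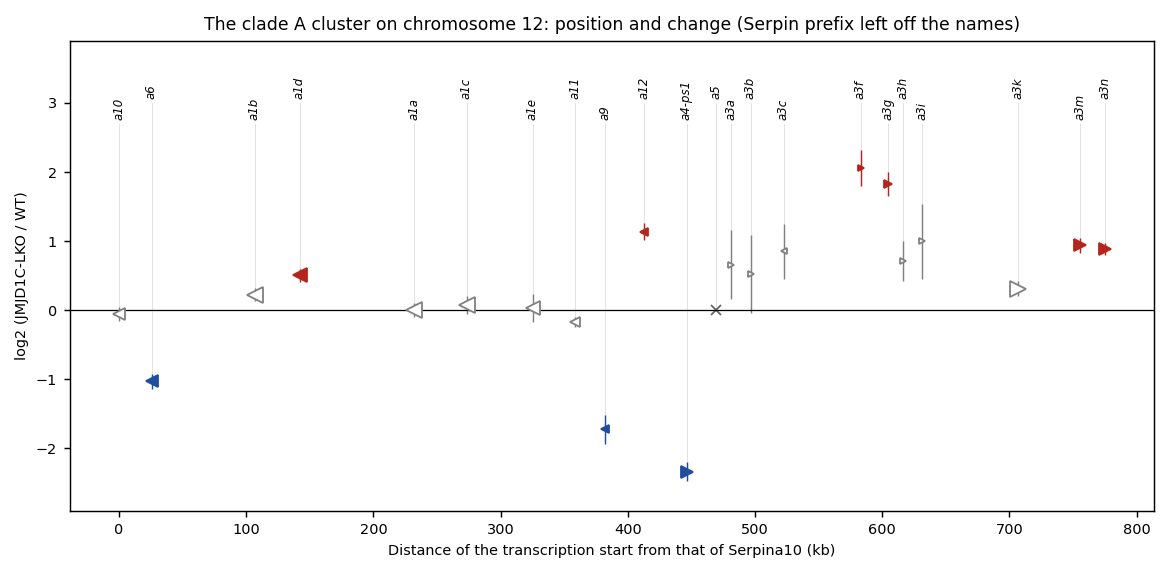
Log2 difference between LKO-labelled and WT libraries (y axis, bars for the standard error) of the 22 clade A members on chromosome 12 by the distance of their start from that of Serpina10 in kb (x axis). Triangles point in the direction of transcription and grow with the WT level, red is higher, blue is lower, open symbols were not called and the cross is Serpina5, which was not tested. Serpina9 and Serpina4-ps1 are below 0 on either side of Serpina12, which is above 0.

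The clade B serpins, which act inside cells, were all at low levels in liver. Serpinb6a, an inhibitor of cathepsin G that many cell types make, was at 6.83 and 7.17 CPM in the WT and 12 and 16.5 CPM in the LKO-labelled libraries (1.03 ± 0.16, adjusted p = 0.00165). Its relative Serpinb6b was at 0.907 and 0.729 against 1.76 and 2.61 CPM (1.42 ± 0.30, adjusted p = 0.0076). Serpinb9, which protects cytotoxic and antigen-presenting cells from granzyme B, was at 3.22 and 3.16 against 4.59 and 5.06 CPM (0.60 ± 0.17, adjusted p = 0.0275). The call of Serpinb6b was lost without the second WT library (adjusted p = 0.0827), and that of Serpinb9 without either WT library (0.173 and 0.187) or the second LKO-labelled library (0.0614).

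These 3 genes rose together with the Kupffer cell markers, most endothelial markers and 2 of 7 lymphocyte markers given above. The part of those cells was not tested. Serpinb1a, an inhibitor of neutrophil proteases, was not called (1.97 and 2.47 against 2.39 and 3.85 CPM, 0.49 ± 0.26), nor was Serpinb8, which pointed down (2.55 and 2.49 against 1.90 and 1.61 CPM, −0.52 ± 0.22, adjusted p = 0.110). Serpinb1b and Serpinb7 had 0 to 9 counts per library.

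The serpins of clades C, D, F and G moved little. Serpinf2 alone was called, at 528 and 515 CPM in the WT and 675 and 647 CPM in the LKO-labelled libraries (0.34 ± 0.08, adjusted p = 0.0123, or 0.0989 and 0.131 without the first or second WT library). Serpinc1 was at 2390 and 2340 against 2174 and 1997 CPM (−0.18 ± 0.09, adjusted p = 0.153), and Serpind1 at 465 and 483 against 538 and 439 CPM (0.04 ± 0.10, adjusted p = 0.785). Serping1 was at 903 and 927 against 1050 and 1002 CPM (0.17 ± 0.08, adjusted p = 0.161), and Serpinf1 at 779 and 751 against 802 and 751 CPM (0.02 ± 0.08, adjusted p = 0.869).

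Serpine2 (protease nexin 1) was at 0.268 to 0.810 CPM and was not called. Serpinh1 (HSP47, a collagen chaperone of the endoplasmic reticulum and no protease inhibitor) was at 7.39 to 8.60 CPM (0.10 ± 0.13, adjusted p = 0.586). Serpine3 had 2 to 16 and Serpini1 (neuroserpin) 5 to 10 counts per library.

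The enzymes and partners of the serpins were followed in lists chosen with earlier results known, to be read against the 14.6% higher and 13.4% lower over all genes. Of 21 tested proteases that serpins hold back, 2 rose and none fell, namely F11 (coagulation factor XI, 40.5 and 36.3 against 61.6 and 51.8 CPM) and Gzmb (granzyme B, 0.309 and 0.345 against 0.971 and 1.87 CPM). The median of this list was 0.06. Of 22 tested secreted inhibitors of other families 5 rose, among them Mug1 (a murinoglobulin, 0.80 ± 0.12) and Itih3 (0.39 ± 0.08), and Itih2 fell by 0.35 ± 0.10 on the log2 scale, with a median of 0.18. Of 18 genes for partners, secretion and clearance of serpins 4 rose. Ctsl (cathepsin L) was at 0.72 ± 0.09 and Lrp1 (the receptor that clears serpin-protease complexes) at 0.63 ± 0.08. The other rises were those of Thbd (1.63 ± 0.24) and Pros1 (0.31 ± 0.08). In that list Lman1 and Sec24d, which carry cargo from the endoplasmic reticulum, fell by 0.45 ± 0.10 and 0.39 ± 0.10 on the log2 scale, and the median was 0.02.

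Serpina3n is known as an acute phase gene, and growth hormone acts on Serpina3 genes of rodent liver through STAT5. Of 22 acute phase genes tested 13 rose and none fell, with a median of 0.40, and Saa1 went from 11.6 and 13.3 to 72.6 and 73.7 CPM (2.55 ± 0.09, adjusted p = 1.43e-06). Of 24 growth hormone and STAT5 genes 7 rose and 5 fell, with a median of 0.12. Socs2, a feedback inhibitor of growth hormone signalling, was among those that fell, from 54.5 and 55.3 to 17.3 and 18.5 CPM. The rises included Sult2a1, from 0.463 and 0.230 to 7.29 and 17.1 CPM.

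Promoter sequences from RefSeq (GRCm38.p6, 250 bases before to 50 after a start) were at hand for 30 of the 40 members and for 27025 genes in all. Members without one included Serpina6, Serpina9 and Serpina4-ps1, which fell, Serpina3m, which rose, and the uncalled Serpina3k, Serpina10 and Serping1. The shares below do not cover these. The C/EBP motif TTGCNNAA (read as TTNNGCAA on the other strand) was in 10 of the 30 (33.3%) and in 12.2% of all genes, and 4 of the 10 were the related Serpina1a, Serpina1b, Serpina1d and Serpina1e. The HNF1 core GTTAAT (either strand) was in 8 of the 30 (26.7%) and in 8.24% of all. The 5 Serpina1 copies, which share sequence, account for 5 of those 8. The STAT motif TTCNNNGAA was in 5 of the 30 (16.7%) and in 9.55% of all, namely Serpina3f, Serpina3g, Serpina3i, Serpina11 and the far start of Serpinb6a. The E-box CACGTG, the letters bound by USF-1, was in none of the 30 and in 8.09% of all.

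Serpina3f, with the largest rise, had both a STAT and C/EBP motifs. Its 250 bases before the upstream start (chr12:104214294-104214543, plus strand, GRCm38.p6) are printed with these letters in capitals, in the order C/EBP, STAT, C/EBP, which begin at −150, −121 and −22 from the start.
Serpina3f: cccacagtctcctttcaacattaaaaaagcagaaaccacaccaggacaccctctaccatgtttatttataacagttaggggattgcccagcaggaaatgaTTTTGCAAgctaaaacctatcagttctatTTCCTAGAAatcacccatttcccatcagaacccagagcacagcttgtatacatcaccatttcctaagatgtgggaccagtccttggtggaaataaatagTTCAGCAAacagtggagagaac
A match of letters is a description of this window, and binding was not measured. Of the other members with the STAT motif, Serpina3g and Serpinb6a rose, and Serpina11 and Serpina3i were not called. The C/EBP motif was also in Serpina1d and Serpina12, which rose, in Serpina7, which fell, and in uncalled members such as Serpina1a. Serpina3n, which rose, had neither motif.

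H3K9me2 is usually a mark of silent chromatin, and JMJD1C removes it. The summits deposited for it were assigned to a gene when they lay within 1000 bp of any of its RefSeq starts. Of the 40 serpins 13 and 19 had such a summit in the fasted livers, where 29.3% and 42.7% of all 26180 annotated genes had one. In the refed livers 0 and 14 serpins did, against 0.233% and 35.1% of all genes. The first refed sample had 1297 summits in all, compared with 7690 to 13456 in the others, so fasted and refed counts could not be compared. With a summit in at least 1 replicate there were 19 fasted and 14 refed serpins (all genes, 42.9% and 35.3%), and in both replicates 13 and 0 (29.1% and 0.042%).

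The serpins with a summit were mainly the abundant ones. In the first fasted sample the 13 serpins with a summit had a median WT level of 408 TPM and the 27 without one 1.502 TPM, while over all genes of the table the medians were 15.0 and 1.08 TPM. Of the 17 serpins at 100 TPM or more, 11, 15 and 11 had a summit in the first fasted, second fasted and second refed samples. Of all 1191 genes at that level 82.5%, 93.8% and 89.3% did. These levels came from other mice, refed, than the fasted ChIP-seq samples.

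The 10 serpins Serpina10, Serpina1c, Serpina1d, Serpina3k, Serpina3m, Serpina3n, Serpind1, Serpinf1, Serpinf2 and Serping1, together with Serpinb6a and Serpini1, had a summit in these 3 samples. Nearly all summits lay downstream of the start, in 14 of 15, 18 of 21 and 13 of 14 cases. In Serpinf1 the 3 samples placed it at 298, 278 and 280 bp, in Serpina3n at 301, 276 and 248 bp and in Serpina1d at 250, 302 and 270 bp. The median offset over all genes was 267, 226 and 267 bp, so the serpins followed the common position. Serpina1b had summits at 381 and 953 bp in the fasted and at 1001 bp in the refed sample, the last just outside the limit, and Serpina1e at 1219 to 1232 bp fasted and 1172 bp refed. At the starts of the 5 Serpina1 copies 28.5% to 49.5% of 50-base windows within 1000 bp recurred in the cluster, with Serpina1e the highest, against 10.99% or less at the other members there. Reads with more than 1 place had been left out by the authors, and the part of this in the summit positions was not tested.

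Against the RNA-seq calls, 5 of the 10 serpins that rose had an H3K9me2 summit in the first fasted and in the second refed WT sample, namely Serpina1d, Serpina3m, Serpina3n, Serpinb6a and Serpinf2. Of the 4 that fell none had one in those 2 samples, and of the 21 not called 7 and 8 had one. In the second fasted sample 6 of the 10 that rose, 2 of the 4 that fell and 10 of the 21 not called had one. The 2 fallen ones were Serpina6 and Serpina4-ps1, with summits at 325 and 242 bp. Of all annotated genes 29.3%, 35.1% and 42.7% had one in the first fasted, second refed and second fasted samples. The serpins with a summit were mainly the abundant ones, as given above. H3K9me2 was not measured in JMJD1C-LKO livers, so no change of the mark can be set beside these differences.

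**Figure D5:**
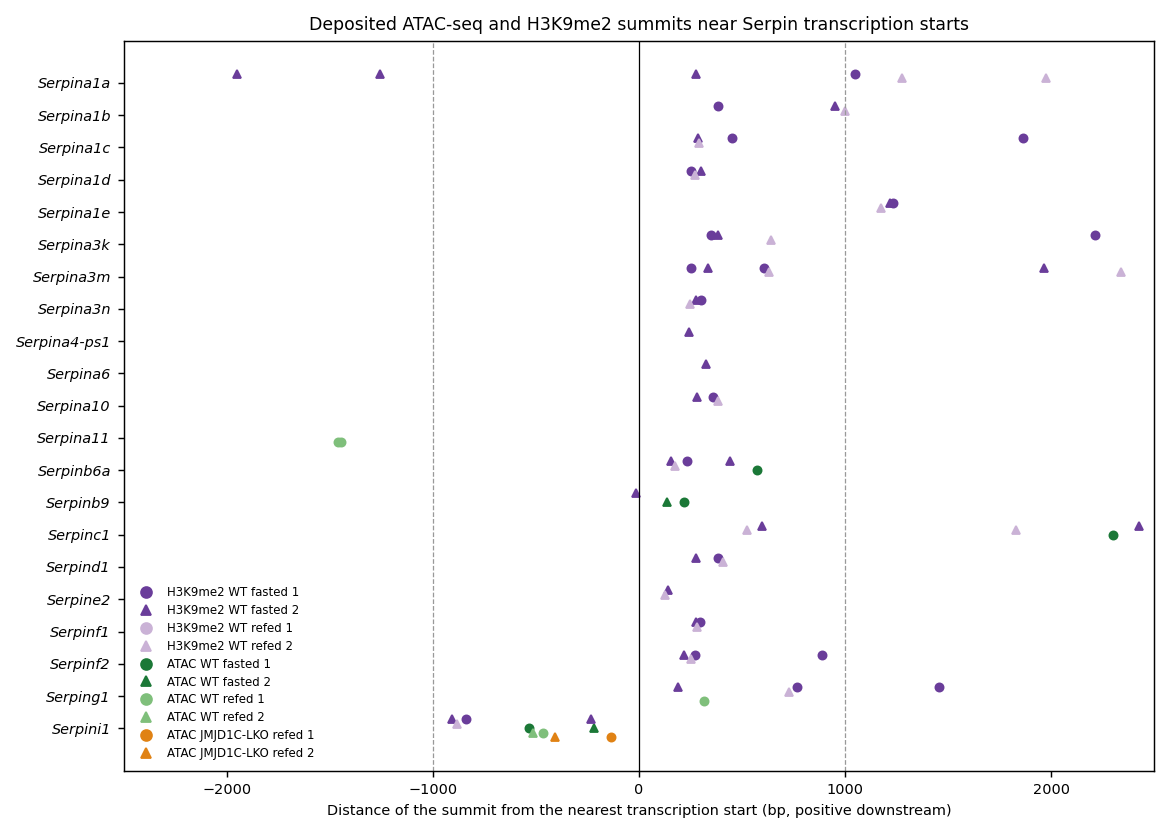
Distance of each deposited summit from the nearest start of a Serpin gene (x axis, bp, positive downstream, dashed lines at 1000 bp) for the members with a summit within 2500 bp (y axis), by assay, group and replicate. H3K9me2 summits lie downstream of the start in most members, and in Serpini1 they lie upstream, on the side of Pdcd10. Serpini1 has an ATAC-seq summit in all 6 samples.

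Open chromatin at serpin starts was rarely called. ATAC-seq summits lay within 1000 bp of the start of 3 and 2 serpins in the fasted WT, 2 and 1 in the refed WT and 1 and 1 in the refed JMJD1C-LKO livers. Of all genes 12% and 5.49%, 9.94% and 6.24%, and 4.06% and 0.886% had one in these samples. With at least 1 replicate the counts of serpins were 3, 2 and 1 (all genes, 13.1%, 11.4% and 4.55%), and with both replicates 2, 1 and 1 (4.36%, 4.78% and 0.397%). The lists held 5220 and 7632, 5027 and 3119, and 1450 and 825 summits in all, and depth is unknown from them, so the smaller numbers in JMJD1C-LKO are given with no comparison.

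None of the abundant serpins but 1 had an ATAC-seq summit at its start. Serping1 had one at 317 bp in the first refed WT liver, with a score of 2.69 on the −log10 q-value scale, weaker than most (within the top 88.4% of that sample by rank). For the other 16 of the 17 serpins at 100 TPM or more no sample had one, where between 1.26% and 20.1% of all 1191 genes at that level did. An accessible start with too few reads would not be listed, and whether that was so here was not tested. Serpinb9 had one in both fasted livers, at 217 and 138 bp, and Serpinb6a in the first fasted liver, at 572 bp from its far start. That start, used by a transcript with 8.26% to 26.0% of the gene's counts, lies 80 and 431 bp from starts of Ripk1, and the H3K9me2 summits of Serpinb6a in the first fasted, second fasted and second refed samples were at the same start (231, 153 and 176 bp). The second fasted sample had a further one at the near start, which serves the other transcripts (441 bp).

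Serpini1, hardly expressed in liver, was the 1 serpin with an ATAC-seq summit in all 6 livers. The summits lay at −534 and −217 bp from its start in the fasted WT, at −468 and −514 bp in the refed WT and at −138 and −406 bp in the JMJD1C-LKO livers. Its start is 641 bp from that of Pdcd10, which is transcribed the other way and was at 10.6 and 10.8 CPM in the WT and 11.7 and 11.4 CPM in the LKO-labelled libraries. The 6 ATAC-seq summits lay between the starts of the pair, and cannot be assigned to either gene. The H3K9me2 summits at −837, −909 and −882 bp from the Serpini1 start lay 196, 268 and 241 bp downstream of the Pdcd10 start, and a further one of the second fasted sample lay between the starts, at −234 bp. The 250 bases before the Serpini1 start (chr3:75557243-75557492, plus strand, GRCm38.p6), in which the summits at −217 and −138 bp fall, are shown with their 13 CG pairs in capitals.
Serpini1: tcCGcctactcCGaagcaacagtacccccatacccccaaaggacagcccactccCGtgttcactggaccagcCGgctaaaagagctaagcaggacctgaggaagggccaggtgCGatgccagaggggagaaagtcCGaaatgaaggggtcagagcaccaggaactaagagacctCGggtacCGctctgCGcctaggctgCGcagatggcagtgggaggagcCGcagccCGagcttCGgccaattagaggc
With the promoter richest in CG pairs taken for each gene, 33.9% of all genes had at least 13. The median of these values was 3 over the members and 6 over all genes.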

How the data were processed

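RNA-seq, ATAC-seq and H3K9me2 ChIP-seq were measured in mouse liver, and groups were taken from the sample labels. The RNA-seq values that the authors deposited are estimated counts of RefSeq transcripts, unscaled (Partek, HISAT2 and DESeq2 3.5 are named in the submitters' processing notes, with no role given). For ATAC-seq the authors aligned with BWA and called peaks per sample with MACS2 (q 0.05), and ChIP-seq reads were aligned with Bowtie2, kept where they had a single place and called with MACS2 against the matched input. The deposited summit lists give a position (mm10) and the −log10 q-value, with no widths or reads. The authors' own comparison per transcript (p, FDR, fold change) was not used.

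Transcript counts were summed per gene and rounded (65.7% to 66.0% of values were fractional). Genes passing filterByExpr were tested with edgeR 4.0.16 (quasi-likelihood F test, TMM, genotype as the only term, Benjamini-Hochberg adjustment over 14151 genes, threshold 0.05). The fit was first run on simulated counts with 1 dispersion (0.0083) for all genes and both groups. The LKO-labelled pair varied more than the WT pair, so that run does not bear on the p-values here. The replicate numbers did not pair the libraries (correlation of deviations −0.0054). TPM used RefSeq exon lengths of GRCm38.p6, in which 52 of 53 member transcripts were found. Summits were assigned within 1000 bp of a start. Coding sequences were aligned with Biopython 1.88.

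Alternatives were DESeq2 1.42.0, limma-voom (limma 3.58.1), RLE factors, total counts, no filter, single transcripts, the replicate block, each library left out, other windows (500 and 2500 bp), a score of at least 5, and summits in both replicates. Every member that passed the filter is described, except 1 that is not reported here, with error and adjusted p for the called ones and the most abundant. The members, lists and motifs were chosen with earlier results of these data known. No protein sequences were used here.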

Additional observations from a re-analysis of the deposited data

How the results depend on the processing

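All 14 called serpins kept their direction under the 11 alternatives run for each, and 140 of the 154 values kept the call. The replicate block changed no call but that of Serpina3k, giving 11 higher and 4 lower serpins, and over all genes 2211 higher and 1996 lower. Leaving out 1 library gave 7 to 12 higher and 4 to 6 lower serpins. Without the first WT library the calls of Serpina1d, Serpinb9 and Serpinf2 were lost, without the second WT library those of Serpinb6b, Serpinb9 and Serpinf2, and without the second LKO-labelled library that of Serpinb9. Calls were gained for Serpinb1a (higher), Serpina1e and Serpinc1 (lower) without the first LKO-labelled library, and for Serpina1b, Serpina1e and Serpina3k (higher) without the second. Over all genes 2066 rose and 1892 fell, and 828 to 2614 rose and 512 to 2557 fell with 1 library left out, the lowest counts without a WT library and the highest without the first LKO-labelled library. Testing single transcripts lost 7 of the 10 higher calls, and the cause was not tested. Total counts in place of TMM moved the median of all genes to −0.03 and gave 1717 higher and 2268 lower genes.

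Direction turned for 8 uncalled serpins. Serpina1a was at −0.0050 without the filter, −0.0028 in limma-voom, −0.0026 with the replicate block and −0.039 with total counts, and ran from −0.11 to 0.099 with 1 library left out. Serpina1e was at −0.029 in limma-voom, −0.030 with the replicate block and −0.019 with total counts, and Serpinf1 at −0.017 with total counts. With 1 library left out Serpina1e ran from −0.45 to 0.39, Serpina10 from −0.19 to 0.064, Serpina1c from −0.15 to 0.27, Serpina3a from −0.045 to 1.15, Serpind1 from −0.11 to 0.18, Serpine2 from −0.46 to 1.12 and Serpinf1 from −0.028 to 0.070.

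With a score of at least 5, 1 serpin had an ATAC-seq summit in fasted WT and 1 in refed WT, and with both replicates 1 in refed WT. Single replicates gave 2 to 3 in fasted and 1 to 2 in refed WT, and 1 in JMJD1C-LKO. Refed H3K9me2 serpins numbered 9 within 500 bp, 0 in both replicates, and 0 to 14 in single replicates, and fasted ones 13 to 19. Counts from 2 samples a group and summit lists with no depth limit all of these comparisons.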
